A study of Mus musculus with 16 samples.

Results

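The response of whole liver to 3 weeks of a steatosis-steatohepatitis diet (SSD) was described in WT mice across all measured genes. The members were all libraries of WT C57BL6J mice by their labels, 5 fed SSD and 4 fed a normal chow diet (NCD), which are 9 of the 16 libraries in the series. The other libraries came from Klrk1 KO mice, which lack the receptor NKG2D, 4 fed NCD and 3 fed SSD, and they entered the test of whether the diet response differed between genotypes and 1 alternative fit of the diet response in WT mice, a model of all 4 groups. The mice were male and 8 to 12 weeks old when feeding began, per the study's methods. SSD is enriched in animal fat, fructose and cholesterol, and NCD served as the control. Each library is RNA of whole liver and is taken here as 1 mouse, so a change can come from fewer cells of a type or from less RNA per cell, which bulk RNA cannot tell apart.

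Liver cells sense sterols and fatty acids through dedicated transcription factors. The SREBP factors switch on the synthesis of cholesterol and fatty acids when membrane sterols are scarce, LXR switches on sterol export when they are plentiful, and PPARα is activated by fatty acids and drives their oxidation. A liver loaded with fat and cholesterol can go on to steatohepatitis, in which hepatocytes are stressed, macrophages accumulate around dying cells and stellate cells lay down collagen.

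The labels of liver were checked first. Of 8 hepatocyte markers, 7 were tested, of which 2 fell and the others were not called (list median -0.35 on the log2 scale), or 1 rose and 1 fell on a scale with equal library totals, and none of the 6 markers of exocrine pancreas reached the minimum level. Between 19892025 and 28936707 reads per WT mouse fell on genes, and reads from mitochondrial genes made up 7.77% to 11.6% of them in the NCD-fed mice and 6.9% to 7.94% in the SSD-fed mice. SSD replicate 1 stood apart. On the first principal component, which held 63.0% of the variance, it lay at 63.9, with the other SSD-fed mice between 19.6 and 38.8 and the NCD-fed mice between -52.4 and -40.3. Its best correlation with another SSD-fed mouse was 0.974 over all genes tested, whereas every other mouse reached 0.986 or more with a mouse of its own diet. Results that rest on this mouse are given below with and without it.

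Values are normalized counts, that is, read counts divided by 1 factor per library. Where values of single mice are listed, NCD-fed mice stand in the order of replicates 1, 2, 3 and 5 and SSD-fed mice in the order of replicates 1 to 5. A gene was called when the adjusted p of limma's test was under 0.05, and "rose" and "fell" refer to such calls for SSD against NCD. Among 13091 genes tested of 25719 in the table, 2265 rose, which is 17.3%, and 2303 fell, which is 17.6%. With a change of more than 2-fold required as well, 800 genes (6.11%) were higher and 379 (2.9%) were lower on SSD. The SSD-fed and the NCD-fed mice did not overlap for 3508 of the 4568 called genes, and for 29.0% of all genes tested. Without SSD replicate 1, 1013 genes passed both limits, of which 953 were among the 1179 that passed with it. When every library was scaled to the same total instead, the overall median of the log2 fold changes went from -0.002 to 0.34 and the calls became 6315 higher and 720 lower, so that 89.8% of the calls were higher instead of 49.6%. Each log2 fold change below would be larger by about this shift on that scale, and list counts on it are given for the lists whose balance of rises and falls changes.

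**Figure D1:**
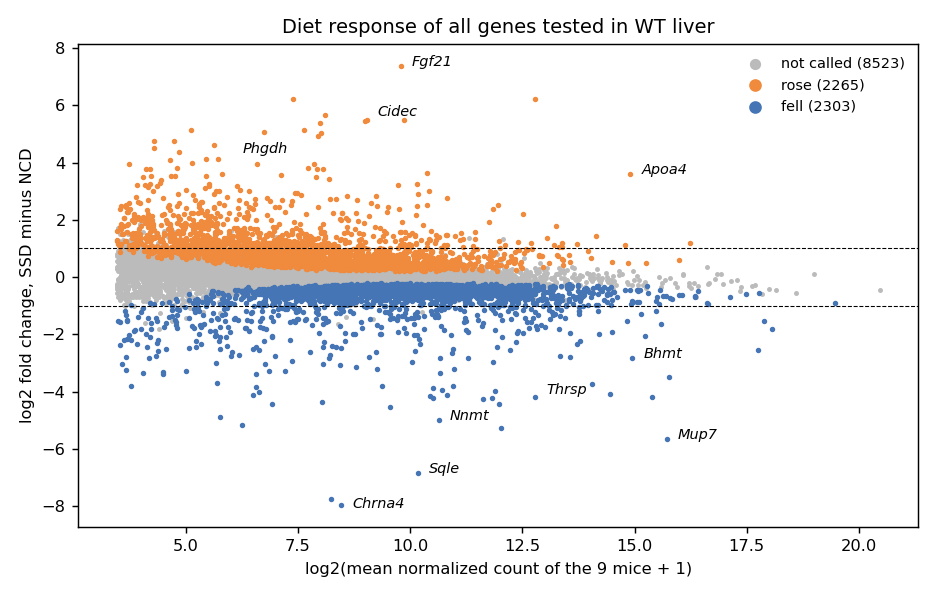
Each dot is 1 of the 13091 genes tested in WT liver, by its mean level over the 9 mice (x axis, log2 of the mean normalized count + 1) and its log2 fold change for SSD minus NCD (y axis), with dashed lines at 2-fold. The 2265 genes that rose (orange) include Fgf21 at 7.38 and Apoa4 at 3.60, and the 2303 that fell (blue) include Chrna4 at -7.95, Sqle at -6.83 and Mup7 at -5.65.

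The 66 gene lists and 11 gene families used below are described by how many of their tested members rose or fell, beside the 17.3% and 17.6% of all genes, and by their median log2 fold change, beside the median of -0.002 over all genes. Some lists and families share members, among them Acot3, Apoa4, Mmp12 and Mup7, so their counts are not separate results. A gene with a mean under 10 on one diet, called low there, reached the minimum level only through the other diet and had to differ, so for lists with such members the counts over members low on neither diet are given as well. Among the genes named, 14 were low on NCD (Fgf21, Phgdh, Cyp2a4, Cyp2b9, Cyp2a22, Eda2r, Ccnb1, Hmmr, Areg, Mmp12, Gpnmb, Timp1, Hhipl1 and Rad51b) and 6 on SSD (Idi1, Chrna4, Moxd1, Slc13a2, Dct and Cyp2c69).

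**Figure D2:**
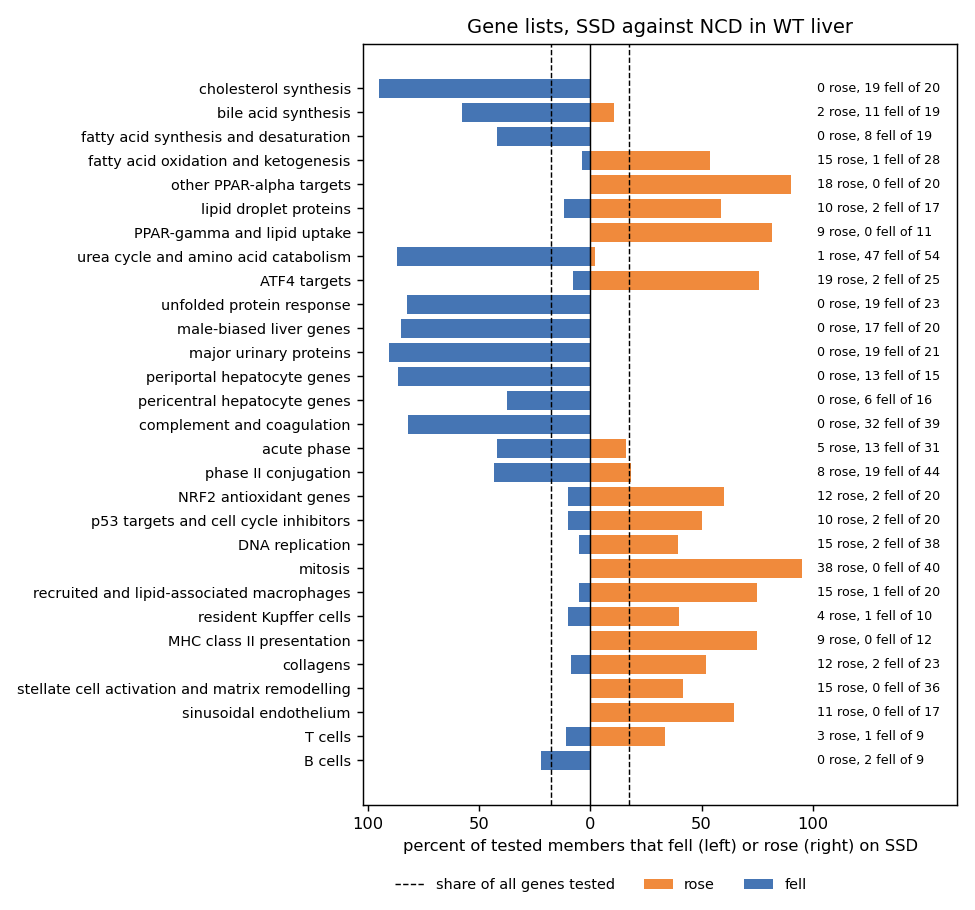
For 29 gene lists (rows), bars give the percent of tested members that rose (orange, right) or fell (blue, left) on SSD, with dashed lines at the shares of all genes tested. Cholesterol synthesis with 19 of 20 members lower and mitosis with 38 of 40 members higher have the longest bars.

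Genes that make cholesterol fell almost as a block. Of 20 tested enzymes of the pathway, 19 fell, all of them by more than 2-fold, and none rose, with a median log2 fold change of -2.80. Of the 19 low on neither diet, 18 fell. Fdps, which makes farnesyl diphosphate at the branch point of the pathway, stood at 7854, 9518, 9390.3 and 7497 normalized counts in the NCD-fed mice and at 296, 452, 433, 362 and 459.7 in the SSD-fed mice. The highest SSD-fed mouse lay far below the lowest NCD-fed mouse, a log2 fold change of -4.43 ± 0.14 (SE, adjusted p = 1.59e-09). Mvd, the decarboxylase that precedes it, changed by -4.53, Idi1, which isomerizes its product, by -4.12, and Dhcr7, the reductase of the last step, by -3.34 on the log2 scale.

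The genes that control the pathway and take up lipoproteins mostly moved the same way. Of 11 tested, 7 fell and 2 rose, or 7 and 1 without SSD replicate 1 and 7 and 4 on the scale with equal totals. Insig1, which holds SREBP in the endoplasmic reticulum, had a log2 fold change of -2.55 (adjusted p = 2.86e-07), the sterol carrier Stard4 one of -2.32 and Srebf2, the gene of SREBP2 itself, one of -1.24.

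Of 17 genes of sterol efflux, esterification and lysosomal handling, 9 rose and 1 fell, or 13 and none on the scale with equal totals. Abca1, the exporter that loads HDL, was not called, with a log2 fold change of -0.0044 (adjusted p = 0.982) and overlapping groups, but was higher on the scale with equal totals (0.34, adjusted p = 0.0427). Abcg5 and Abcg8 encode the subunits of the transporter that secretes sterols into bile, and they lie head to head with exons that overlap on opposite strands. Abcg5 stood at 1049, 839.7, 1247 and 1274 normalized counts on NCD and at 5794, 5656, 6192, 6192 and 7807 on SSD. All 5 SSD-fed mice lay above all NCD-fed mice, with a log2 fold change of 2.53 ± 0.13 (SE, adjusted p = 1.19e-07), and Abcg8 changed by 2.38. Soat2, which esterifies cholesterol in hepatocytes, rose by 1.01 on the log2 scale. For Abcg1, an exporter that macrophages also use, the log2 fold change was 1.59, and 1.34 without SSD replicate 1, whose value of 698.8 was above the range of 269 to 346 in the other SSD-fed mice.

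Bile acid synthesis, the other way to remove cholesterol, was lower on SSD for 11 of 19 genes and higher for 2. On the scale with equal totals, 5 fell and 4 rose, with a median of -0.06 against -0.40 here. Cyp7b1, the hydroxylase of the alternative pathway, stood at 10611, 8534, 9152 and 9051 normalized counts on NCD and at 980.5, 1694, 2603, 2213 and 2727 on SSD, with no overlap. The log2 fold change was -2.28 (adjusted p = 4.28e-05). Cyp2c70, which makes the muricholic acids of mice, changed by -1.81. Cyp7a1, the rate-limiting enzyme of the classical pathway, varied among the NCD-fed mice, with 1479.7, 4200.5, 2982 and 978 normalized counts against 1251, 665, 1118, 1073 and 1106 on SSD. The groups overlapped and its call was not stable, with a log2 fold change of -1.02, an adjusted p of 0.0416 and a range of adjusted p from 0.00657 to 0.139 over the alternatives. It was lost without NCD replicate 2 or 3 and without SSD replicate 2, 3, 4 or 5, for which the adjusted p was 0.12, 0.12, 0.0892, 0.0593, 0.0662 and 0.0526, and also with other variance settings, on the scale with equal totals, with quantile normalization and with the replicate block. Nr0b2, the repressor SHP that bile acids induce, rose by 1.19 on the log2 scale.

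Bile acid transporters divided, with 4 of 12 higher and 4 lower, or 4 and 2 on the scale with equal totals. Slc10a1, which takes bile acids up from blood, had a log2 fold change of -0.87. The canalicular phospholipid flippase Abcb4 rose from between 3595 and 4266 to between 7998 and 9683 normalized counts. Abcc4, a basolateral exporter, stood at 25.3, 31.2, 14.3 and 26.5 on NCD and at 285, 122, 109, 96.8 and 91.4 on SSD, a log2 fold change of 2.39, and of 2.11 without SSD replicate 1.

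Fatty acid synthesis was lower for 8 of 19 genes and higher for none, and on the scale with equal totals 8 fell and 3 rose. Thrsp (chromosome 7, 97062145 to 97066937 on GRCm39), a gene of lipogenic tissues that follows carbohydrate feeding, stood at 11588, 17312, 17080.0 and 12570.0 normalized counts on NCD. On SSD it stood at 324, 1887, 1879.6, 583 and 432, with replicates 2 and 3 higher than the other 3 mice and all 5 below every NCD-fed mouse. Its log2 fold change was -4.20 ± 0.48 (SE, adjusted p = 6.00e-05). Acacb, the acetyl-CoA carboxylase whose product holds back fatty acid entry into mitochondria, changed by -2.97, Acss2, which activates acetate, by -2.95 and Fasn, fatty acid synthase, by -1.94. Scd1, the desaturase that makes oleate, was not called, with 114670.0 to 179940.0 normalized counts on NCD, 95398 to 189170.0 on SSD and a log2 fold change of -0.14 that became 0.20 on the scale with equal totals.

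Genes of fatty acid oxidation were higher. Of 28 genes of oxidation and ketogenesis, 15 rose and 1 fell, or 25 and none on the scale with equal totals, and of 20 other targets of PPARα, 18 rose and none fell, with a median log2 fold change of 1.47, or 17 of the 19 low on neither diet. Crat, which makes acetylcarnitine, rose from between 802 and 1042 to between 1796 and 3236 normalized counts, or by 1.48 on the log2 scale (adjusted p = 2.37e-05). The peroxisomal enzymes Ehhadh and Acaa1b rose by 1.37 and 1.13, and Cpt1a, the gate of mitochondrial import, by 0.87 on the log2 scale. Larger rises were found in Vnn1, a pantetheinase, at 2.89, and in the acyl-CoA thioesterase genes Acot2 and Acot3, at 3.49 and 3.57, which belong to a cluster of similar copies that may share reads.

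Among PPARα targets, SSD replicate 1 was the lowest of its group for Cyp4a14, Acot3, Vnn1, Ehhadh, Acaa1b and Crat and the highest for Acot2. Cyp4a14, an omega-hydroxylase with close copies, stood at 170.0, 326, 88.6 and 97.1 normalized counts on NCD and at 3941, 15098, 11810.0, 13116 and 19169 on SSD. Acot3 stood at 53.8, 433, 304, 220.3 and 167 in the SSD-fed mice. The median change of the 20 targets from the NCD mean was 1.20, 1.81, 1.59, 1.72 and 1.61 in SSD replicates 1 to 5. Ppara itself rose by 0.71 on the log2 scale. Fgf21, a hormone gene that both PPARα and ATF4 are known to drive, had 3.62 to 15.1 normalized counts on NCD and 814 to 2224 on SSD.

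Lipid droplet proteins rose for 10 of 17 genes and fell for 2, or 14 and 1 on the scale with equal totals. Cidec (chromosome 6, 113401595 to 113412721 on GRCm39), which fuses droplets into larger ones, stood at 28.9, 22.1, 9.12 and 18.8 normalized counts on NCD and at 1155, 1407, 952, 608 and 519 on SSD. It was higher in all 5 SSD-fed mice, with a log2 fold change of 5.49 ± 0.34 (SE, adjusted p = 4.53e-07). Plin4, a coat protein of droplets, rose from between 135 and 269 to between 1409.6 and 2889, and Plin2, the main coat protein of liver droplets, by 0.59 on the log2 scale with overlap between the groups. Of 11 genes tested of a list around PPARγ and lipid uptake, which also holds genes of other roles such as Apoa4, 9 rose and none fell. The fatty acid translocase Cd36 rose by 2.48, the lipoprotein receptor Vldlr by 2.58 and Pparg itself by 1.22 on the log2 scale, each without overlap. The only marker of adipocytes tested of 5, the adipsin gene Cfd, also rose (adjusted p = 0.0351), a call that was lost without NCD replicate 1, 2, 3 or 5 or SSD replicate 2 or 3 (adjusted p = 0.0714, 0.0671, 0.083, 0.0672, 0.0706 and 0.0724), with other variance settings and with quantile normalization, in a range of adjusted p from 7.22e-05 to 0.103 over the alternatives. It was at 18.1, 15.1, 9.12 and 14.3 on NCD and at 9.3, 1256, 1134, 77.3 and 91.4 on SSD, so that replicates 2 and 3 were high and replicate 1 lay at the NCD level, and its part in these results was not tested.

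Apolipoprotein genes were lower for 6 of 20 and higher for 2, and on the scale with equal totals 3 fell and 8 rose. Apoa4, an apolipoprotein of chylomicrons and HDL that fatty livers are known to make, was at 3314, 4447, 4063 and 4608 normalized counts on NCD and at 86599, 37963, 35265, 46031 and 54807 on SSD. SSD replicate 1 was the highest, and the log2 fold change was 3.60 with it and 3.39 without it.

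Amino acid catabolism was lower on SSD. Of 54 genes of the urea cycle and amino acid breakdown, 47 fell and 1 rose, and the list's median log2 fold change was -0.94. On the scale with equal totals 36 fell and 2 rose. Bhmt (chromosome 13, 93753183 to 93774469 on GRCm39), which remethylates homocysteine with betaine, was at 52865, 57219, 68710.0 and 59108 normalized counts on NCD and at 20442, 7256, 9771, 5590.3 and 4750.2 on SSD. The groups did not overlap, with a log2 fold change of -2.84 (adjusted p = 7.89e-05) although SSD replicate 1 kept more than the other 4 mice. Gnmt, which consumes S-adenosylmethionine, changed by -2.24, Acmsd of tryptophan breakdown by -2.62 and Agxt, which detoxifies glyoxylate, by -2.08. Among urea cycle genes Ass1, argininosuccinate synthase, changed by -1.92 and Cps1, which fixes ammonia, by -1.19. Tat, which opens tyrosine breakdown, changed by -2.05, Hal, which opens that of histidine, by -1.55 and Gls2, the liver glutaminase, by -1.94.

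Targets of ATF4, the factor of the integrated stress response, rose. Of 25 tested, 19 rose and 2 fell, with a median log2 fold change of 1.32. Of the 23 low on neither diet, 17 rose and 2 fell, with a median of 1.17. Phgdh (chromosome 3, 98220486 to 98247306 on GRCm39) and Psat1 encode the first steps of serine synthesis, which is low in a chow-fed liver. Phgdh was at 3.62, 7.05, 2.61 and 4.41 normalized counts on NCD and at 328, 178, 107, 169.7 and 154 on SSD. Psat1 was at 12.1, 12.1, 11.7 and 15.4 and at 694, 383, 294, 393 and 406. Both lay far apart between the diets, with a log2 fold change of 4.92 ± 0.22 (SE, adjusted p = 2.86e-08) for Psat1 and of 5.08 for Phgdh, which was tested only through its level on SSD. Nupr1, a small stress protein, rose by 3.79, Gdf15, a hormone of tissue stress that lowers food intake, by 2.83, Chac1, which degrades glutathione, by 2.72 and Trib3, a pseudokinase, by 2.25 on the log2 scale. Asns, asparagine synthetase, rose by 2.70, and by 2.34 without SSD replicate 1, which had 1673 normalized counts against 285 to 617 in the others.

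The other arm of the stress response to unfolded proteins, chaperones and degradation factors of the endoplasmic reticulum, moved the opposite way. Of 23 genes tested, 19 fell and none rose, and the list's median log2 fold change was -0.76. On the scale with equal totals 15 fell and 2 rose. Hspa5, the chaperone BiP, was at 77003, 50519, 42581 and 46220.0 normalized counts on NCD and at 21132, 20195, 24843, 16422 and 25531 on SSD. All 5 SSD-fed mice were below all NCD-fed mice, with a log2 fold change of -1.30 (adjusted p = 0.000315). The cofactors Sdf2l1 and Creld2 changed by -1.86 and -1.72, Syvn1, the ubiquitin ligase of ER-associated degradation, by -1.47 and Xbp1, whose spliced product drives these genes, by -0.55. Hspa5 and Syvn1 have exons that overlap genes on the opposite strand, and the sources used here do not say whether reads were counted by strand.

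Promoters of both lists were read from RefSeq (build GRCm38.p6) over 250 bases before to 50 bases after each start site, to show their sequences. The ER stress response element, searched on both strands as CCAAT and CCACG with 9 bases between them, was in the promoters of 9 of 20 genes of the unfolded protein response, against 0.137% of all 27025 genes with a promoter. Below are 3 of these windows on the strand of the gene, with the element in capitals, shown because their genes fell and are named above. In Creld2 the element lies on the opposite strand, so its complement is seen.
Hspa5 (chr2:34772022-34772046, + strand): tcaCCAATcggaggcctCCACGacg
Syvn1 (chr19:6046529-6046553, + strand): caaCCAATcggcggtagCCACGgga
Creld2 (chr15:88819517-88819541, + strand): tctCGTGGcgagcctcaATTGGtcc
The C/EBP-ATF element, to which ATF4 and its partners can bind and which was searched as TGATGNAA on both strands, was in the promoters of 7 of 24 genes of the ATF4 list with a promoter, against 4.51% of all genes. The windows of 4 genes that rose follow in the same manner, with the complement in capitals for Fgf21, Nupr1 and Chac1.
Fgf21 (chr7:45615613-45615638, - strand): acccccccaTTGCATCAtccgtccag
Nupr1 (chr7:126625564-126625589, - strand): agggccagaTTGCATCAgacagggct
Chac1 (chr2:119351040-119351065, + strand): tccctgccgTTGCATCActcctgcca
Asns (chr6:7693216-7693241, - strand): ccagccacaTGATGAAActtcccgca
In the same search, the sterol regulatory element (TCACNCCAC) was found for 1 of 15 cholesterol synthesis genes, against 1.44% of all genes. The PPAR element (AGGNCA repeated after 1 base) was found for 1 of 16 other PPARα targets, against 0.451%, and the E-box (CACGTG) for 5 of 18 clock genes, against 8.09%. The PPARα target with the match was Fabp1, which was not called. Of the 5 clock genes with an E-box, only 1, Per1, was called, and it rose. A match is a description of these windows, and no binding was measured.

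Genes that male livers express more than female livers fell. Of 20 such genes, 17 fell and none rose, with a median log2 fold change of -1.74. The pattern of growth hormone pulses is known to set this difference. Major urinary proteins, pheromone carriers that male liver secretes in large amounts, fell for 19 of 21 tested genes, all by more than 2-fold, with a median of -3.01, and for 17 of the 19 low on neither diet. The male-biased list also holds Mup7, so these counts overlap. Mup7 (chromosome 4, 60066469 to 60070475 on GRCm39) was at 145260.0, 96512, 125550.0 and 104750.0 normalized counts on NCD and at 413, 2083, 4969.7, 2892 and 5342 on SSD. The highest SSD-fed mouse was below every NCD-fed mouse and SSD replicate 1 was the lowest, with a log2 fold change of -5.65 (adjusted p = 3.25e-05), or -5.03 without that mouse. Mup16 changed by -5.27, and since the Mup genes are near-identical copies, reads may be split among them. Selenbp2, a selenium-binding protein, changed by -4.10, the glucuronosyltransferase Ugt2b38 by -3.22 and the omega-hydroxylase Cyp4a12a by -1.43.

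Of 23 female-biased genes, 11 reached the minimum level. Of the 8 low on neither diet, 4 rose and 1 fell. Those that rose include Acot3, which is also counted among the PPARα targets above. The members of the list that fell, named after their values were seen, were Cyp2c69, from between 47.5 and 71.7 to between 0 and 13.5 normalized counts (log2 fold change -3.29), and Cyp17a1, a steroid hydroxylase, from between 94.1 and 297 to between 34.3 and 67.6 (-1.77, adjusted p = 0.000843). The next 3 genes were low on NCD and are given as values. Cyp2a4, a steroid hydroxylase close in sequence to other Cyp2a genes, was at 1.21, 2.01, 2.61 and 5.52 normalized counts on NCD and at 413, 471, 106, 187 and 321 on SSD. Cyp2a22, of the same subfamily but not on the list, was at 10.9, 11.1, 5.21 and 9.93 and at 654, 700.4, 325, 324 and 249.8, a log2 fold change of 5.38. Cyp2b9 had no read in any NCD-fed mouse and 17.9, 131, 124, 5.33 and 27.8 normalized counts in the SSD-fed mice. With reads pooled over each group, it was at least 67.3-fold higher against 3 reads over the NCD group. This figure leaves out the spread between the SSD-fed mice, which ran from 6 to 155 reads. Without overlap in any of the 3 genes, SSD replicates 1, 2 and 5 held the highest values of Cyp2a4 and replicate 4 the lowest value of Cyp2b9.

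In the growth hormone axis 5 of 15 genes fell and 3 rose, or 5 and 1 without SSD replicate 1, and on the scale with equal totals 4 fell and 5 rose. Onecut1, a liver transcription factor that growth hormone is known to induce, was at 444, 538, 490.1 and 686 normalized counts on NCD and at 31.2, 37.2, 143, 98.6 and 190.2 on SSD. Igf1, the hormone that liver makes in response to growth hormone, changed by -0.84, its plasma partner Igfals by -1.54 and the receptor Ghr by -0.76 on the log2 scale, all without overlap between the diets.

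Plasma proteins of complement and coagulation fell for 32 of 39 genes and rose for none, and the list's median log2 fold change was -0.66. On the scale with equal totals 22 fell and 2 rose. C8b, a subunit of the membrane attack complex, was at 14199, 11872, 11987 and 10484 normalized counts on NCD and at 3163, 2335, 3526, 4145 and 4174 on SSD. The diets did not overlap, with a log2 fold change of -1.83 (adjusted p = 8.52e-06). C9 and C6 of the same complex changed by -1.19 and -1.10, and F11, coagulation factor XI, by -1.38.

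Acute phase genes split, with 13 of 31 lower and 5 higher, and on the scale with equal totals 5 fell and 9 rose. Orm1, a plasma carrier of drugs and lipids, was at 24724, 18841, 28570.0 and 25833 normalized counts on NCD and at 4689, 5771, 4782, 4606 and 4053 on SSD, a log2 fold change of -2.35 (adjusted p = 2.26e-07). In contrast, Saa3, a serum amyloid A gene that macrophages and other non-hepatocytes also express, rose from between 119 and 212 to between 549 and 1372. Il1rn, the antagonist of interleukin-1, was at 453, 144, 114, 107 and 131 on SSD against 39.8, 21.1, 15.6 and 27.6 on NCD. SSD replicate 1 was the highest, and the log2 fold change was 2.66 with it and 2.28 without it.

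Genes that handle foreign compounds changed in both directions. Of 39 cytochrome P450 genes of families 1 to 3, 17 fell and 6 rose, and of 44 conjugation genes 19 fell and 8 rose. Of the 33 P450 genes low on neither diet, 16 fell and 3 rose. On the scale with equal totals these counts were 10 lower and 10 higher, and 13 lower and 17 higher, so the excess of lower genes in both lists depends on the scale. Nnmt (chromosome 9, 48503177 to 48516453 on GRCm39), which methylates nicotinamide, was at 3994, 2556, 3552 and 3732 normalized counts on NCD and at 215, 132, 127, 42.6 and 92.3 on SSD. It was lower in all 5 SSD-fed mice, with a log2 fold change of -4.98 ± 0.35 (SE, adjusted p = 1.44e-06). Cyp2c40 changed by -3.84 and Cyp1a2, the caffeine hydroxylase of cells around the central vein, by -1.03. Gsta1, a glutathione S-transferase with close copies, rose from between 24.8 and 43.04 to between 325 and 601, a log2 fold change of 3.77, and Gstm1 by 1.18.

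Antioxidant genes that NRF2 drives were higher for 12 of 20 and lower for 2, or 16 and none on the scale with equal totals. Cbr3, a carbonyl reductase, rose by 2.12, the epoxide hydrolase Ephx1 by 1.43, the quinone reductase Nqo1 by 1.22 and Gclc, which starts glutathione synthesis, by 1.05 on the log2 scale. Hmox1, which degrades heme, was at 1895, 932, 817, 981 and 908 on SSD and at 504, 379.6, 454 and 430.4 on NCD, with SSD replicate 1 above the rest. By place in the lobule, 13 of 15 genes of periportal hepatocytes fell and none rose, and 6 of 16 genes of pericentral hepatocytes fell and none rose, or 6 and 1 without SSD replicate 1. With equal totals the pericentral genes gave 5 lower and 3 higher, and the periportal genes 9 lower and none higher.

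**Figure D3:**
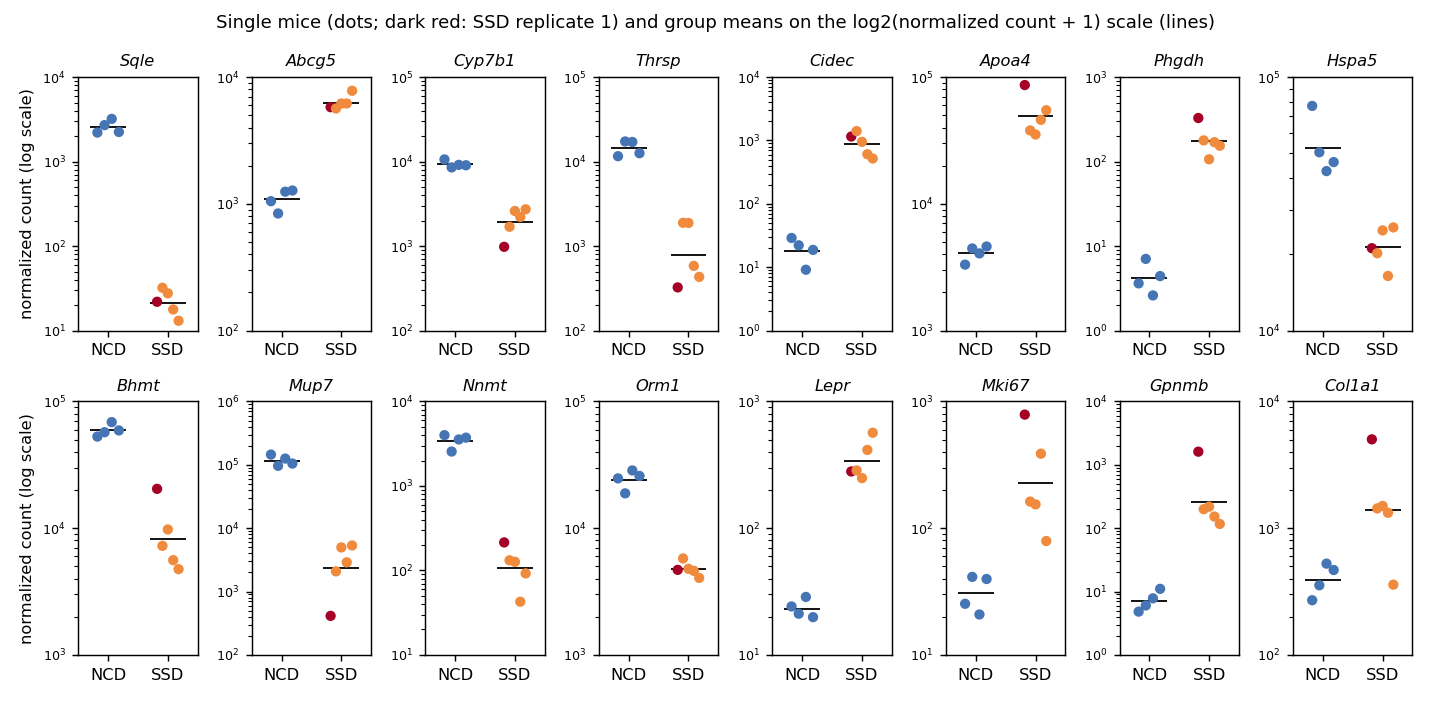
Normalized counts (log scale) of 16 genes in each NCD-fed mouse (blue) and SSD-fed mouse (orange, with replicate 1 in dark red), and the group mean on the log2(normalized count + 1) scale (line). For 15 of the genes no SSD-fed mouse overlaps an NCD-fed mouse, and for Col1a1 SSD replicate 5, at 358, lies among the NCD-fed mice.

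Most genes of mitosis rose. Of 40 genes of mitosis 38 rose, all by more than 2-fold, and none fell, and the list's median log2 fold change was 2.21. Of the 40, 16 were low on NCD, and of the other 24, 23 rose, all by more than 2-fold, with a median of 2.09. Without SSD replicate 1, 35 of the 38 still tested rose, with a median of 1.93. Mki67, the antigen Ki-67 of dividing cells, was at 25.3, 41.3, 20.9 and 39.7 normalized counts on NCD and at 788, 162, 154, 387 and 79.2 on SSD. Replicates 1 and 4 were the highest and replicate 5 the lowest on SSD, and the log2 fold change was 2.86 ± 0.53 (SE, adjusted p = 0.00181), or 2.41 without replicate 1. The same order was seen for Ccnb1, the cyclin of mitotic entry, at 175, 51.5, 28.6, 110.2 and 15.5 on SSD against 4.82, 2.01, 9.12 and 6.62 on NCD. Hmmr, a spindle protein, was at 157, 38.02, 43.8, 133 and 7.35 against 1.21, 3.02, 2.61 and 1.103, and Top2a, the topoisomerase of chromosome segregation, rose by 2.17 on the log2 scale.

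Genes of DNA replication moved less, with 15 of 38 higher and 2 lower and a median of 0.37, or 26 higher and 1 lower on the scale with equal totals. Of the 36 low on neither diet, 14 were higher and 2 lower. The helicase subunits Mcm5 and Mcm6 rose by 1.09 and 1.17. Of 19 G1 cyclins and growth genes tested, 8 rose and 1 fell, or 6 and 1 without SSD replicate 1. On the scale with equal totals 11 of them rose and none fell. Promoters of the mitosis list often held the CHR element, TTTGAA on either strand, to which the MuvB complex of cell cycle genes can bind. It was found for 25 of 33 genes with a promoter, against 20.2% of all genes. The E2F site (TTTNGCGC) was found for 10 of 30 DNA replication genes, against 1.57%. The windows of 3 genes named here, with the element in capitals, are shown for that reason.
Mki67 (chr7:135716480-135716505, - strand): agcgccagaaTTTGAAccgccgtttt
Mki67 (chr7:135716462-135716487, - strand): gccgttttggTTTGAAtcgggcgggc
Top2a (chr11:99024353-99024378, - strand): attggtccatTTTGAAgattctcccg
Hmmr (chr11:40733414-40733439, - strand): ttgaggtaaaTTTGAAttcaggcgag
The element of Hmmr lies just after the start site and those of the other windows before it.

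Of 20 targets of p53 and inhibitors of the cell cycle, 10 rose and 2 fell, or 16 and 1 on the scale with equal totals. Of the 18 low on neither diet, 8 rose and 2 fell. Cdkn1a, which encodes the cyclin-dependent kinase inhibitor p21, was at 254, 408, 499 and 296 normalized counts on NCD and at 2985, 2013, 2081, 1997 and 1375 on SSD. It was higher in all 5 SSD-fed mice, with a log2 fold change of 2.52 (adjusted p = 8.37e-06). Gadd45b, a sensor of growth arrest, rose by 2.94 and Eda2r, a receptor of the TNF family that p53 induces, by 3.05.

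Of 13 genes of the EGF family 3 rose and 3 fell, and on the scale with equal totals 7 rose and 1 fell. Of the 10 low on neither diet, 2 rose and 3 fell, with a median log2 fold change of 0.01 against 0.22. Egfr, the receptor, was at 11500.0, 17291, 15634 and 9307 normalized counts on NCD and at 3649, 2304, 7014, 7196 and 9291 on SSD, a log2 fold change of -1.32 (adjusted p = 0.0138, and 0.0588 with quantile normalization). Areg, the ligand amphiregulin, had 1 read in the 4 NCD-fed mice together and 28 to 73 reads in each SSD-fed mouse. The ratio of the group levels was 117, with an interval for counting error alone of 20.7 to 4625 (95%, exact). Btc, betacellulin, rose by 1.19 on the log2 scale. Lepr (chromosome 4, 101574601 to 101672549 on GRCm39), the leptin receptor, was at 24.1, 21.1, 28.7 and 19.9 normalized counts on NCD and at 280.3, 286, 248, 415 and 567 on SSD, with replicate 5 the highest and a log2 fold change of 3.82 (adjusted p = 3.90e-07).

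Markers of recruited and lipid-associated macrophages rose for 15 of 20 genes and fell for 1, with a median log2 fold change of 1.36. Without SSD replicate 1 the counts were again 15 and 1, with a median of 1.02. Of the 18 low on neither diet, 13 rose and 1 fell, with a median of 1.20. Gpnmb (chromosome 6, 49013480 to 49047863 on GRCm39), a glycoprotein of lipid-laden macrophages, was at 4.82, 6.04, 7.82 and 11.04 normalized counts on NCD and at 1614, 199, 219, 153 and 117 on SSD. Trem2, their lipid receptor, was at 6.03, 16.1, 22.2 and 26.5 and at 445, 85.3, 75.2, 91.5 and 61.2. In both genes SSD replicate 1 was several times above the other SSD-fed mice, which still lay above all NCD-fed mice, and the log2 fold changes without it were 4.37 and 2.24 (adjusted p = 0.000592 for Trem2), against 5.02 and 2.74 with it. Mmp12, macrophage elastase, changed by 5.14 and Lgals3, galectin-3, by 2.83. Ccr2, the chemokine receptor of monocytes, was at 37.4, 23.2, 35.2 and 35.3 on NCD and at 284, 115, 98.98, 68.4 and 65.3 on SSD.

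Fabp5, a fatty acid-binding protein on the same marker list that hepatocytes also express, went the other way. It was at 2194, 2138, 4515 and 2911 normalized counts on NCD and at 338, 149, 137, 116 and 118 on SSD, a log2 fold change of -4.15 (adjusted p = 1.95e-06). Of 10 markers of resident Kupffer cells 4 rose and 1 fell, or 2 and 1 without SSD replicate 1 and 7 and 1 on the scale with equal totals. Cd5l, a secreted protein of Kupffer cells under LXR control, was at 1056, 1122, 967 and 929 on NCD and at 5957, 2311, 2227, 3325 and 2185 on SSD, a log2 fold change of 1.54, or 1.28 without SSD replicate 1.

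Genes of antigen presentation by MHC class II rose for 9 of 12, with none lower, and for 9 of the 11 low on neither diet. The median change of the list from the NCD mean was 1.87, 0.73, 0.99, 1.24 and 0.08 in SSD replicates 1 to 5. H2-Aa, a chain of the class II molecule, was at 563, 667, 920.3 and 775 normalized counts on NCD and at 3379.8, 1385, 1568, 1949.9 and 800.1 on SSD, so replicate 5 lay within the NCD range. Of 7 markers of dendritic cells tested, 3 rose and none fell, or 1 and none without SSD replicate 1. With equal totals 5 rose, and of the 5 low on neither diet 2 rose. The median changes of these markers from the NCD mean were 1.56, 0.72, 0.76, 1.45 and 0.24 in SSD replicates 1 to 5. Their part in the class II changes was not tested. Lists around interferon were mixed. Of 43 interferon-stimulated genes 11 rose and 7 fell, or 26 and 3 on the scale with equal totals, and of 17 genes of MHC class I presentation none rose and 5 fell, or 5 and 1 on that scale. Of 21 chemokines tested 6 rose and 4 fell, or 9 and 4 on that scale and 5 and 3 of the 19 low on neither diet, and among those that rose was Cxcl10, which interferons induce, by 1.25 on the log2 scale.

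Matrix genes differed widely between the SSD-fed mice. Of 23 collagens 12 rose and 2 fell, and of 36 genes of stellate cell activation and matrix remodelling 15 rose and none fell. On the scale with equal totals these counts were 16 and none, and 31 and none. Of the 22 collagens low on neither diet 12 rose and 2 fell, and of the 32 such genes of the other list 11 rose. Over all members tested, the median changes of the collagens and of the other list from the NCD mean were 1.52, 0.77, 0.79, 0.64 and -0.13 and 1.96, 0.87, 0.91, 0.65 and -0.04 in SSD replicates 1 to 5, so replicate 5 was near the NCD mean. Col1a1, the main fibrillar collagen, was at 270.1, 354, 525 and 468 normalized counts on NCD and at 5027, 1432, 1499, 1324 and 358 on SSD. Its log2 fold change was 1.82 (adjusted p = 0.0223), and the call was lost without NCD replicate 1 (adjusted p = 0.0733) or NCD replicate 2 (adjusted p = 0.0532), with robust variances and with the replicate block, in a range of adjusted p from 0.000954 to 0.0763 over the alternatives. Timp1, an inhibitor of matrix proteases, rose from between 2.01 and 7.82 to between 13.1 and 167, without overlap. Acta2, the actin of activated stellate cells, and Lox, which crosslinks collagen, were not called, with log2 fold changes of 0.71 (adjusted p = 0.174) and 1.09 (adjusted p = 0.218). Without SSD replicate 5 both were called, at 1.04 (adjusted p = 0.0176) and 1.65 (adjusted p = 0.0217). Acta2 was also called on the scale with equal totals (1.06, adjusted p = 0.0417) and Lox with DESeq2 (1.86, adjusted p = 0.0191). Hhipl1, which is related to a hedgehog-binding protein, rose by 1.08 (adjusted p = 0.0124), a call that was lost with quantile normalization (0.62, adjusted p = 0.076) and with the replicate block of the 8 mice whose numbers occur on both diets (1.09, adjusted p = 0.08), in a range of adjusted p from 0.000809 to 0.08 over the alternatives. Beside these, 5 of 10 stellate cell markers and 11 of 17 markers of sinusoidal endothelium rose and none fell, or 10 and 16 on the scale with equal totals. Their part in the matrix changes was not tested.

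**Figure D4:**
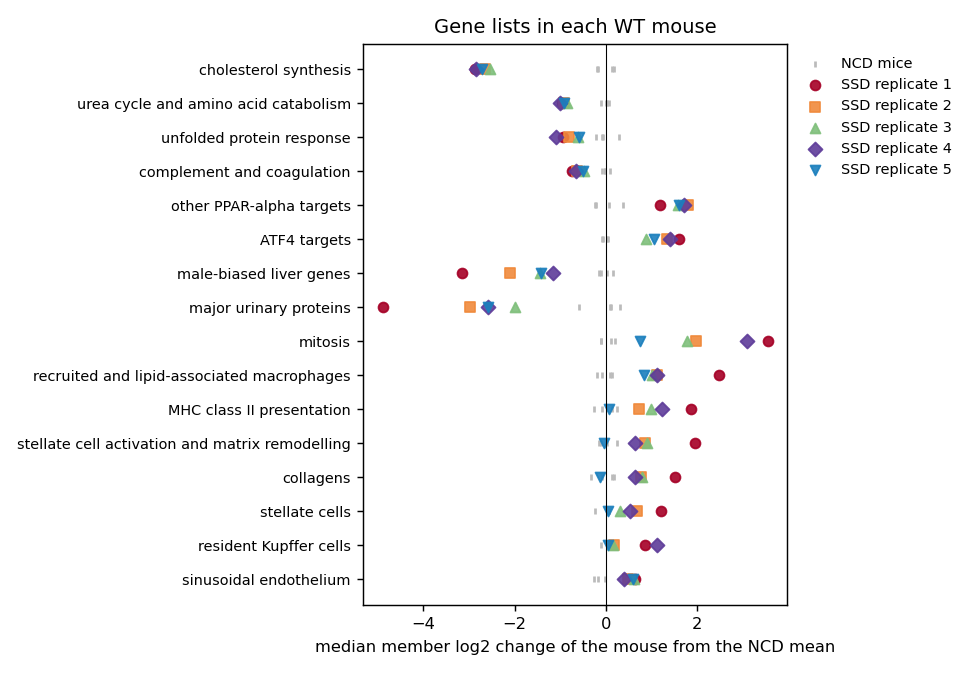
For 16 gene lists (rows), symbols give the median over tested members of each SSD-fed mouse's log2 change from the mean of the NCD-fed mice (x axis), and grey ticks the same for the NCD-fed mice. The 5 SSD-fed mice lie close together for cholesterol synthesis (-2.87, -2.66, -2.54, -2.85 and -2.72) and spread widely for mitosis (3.56, 1.99, 1.80, 3.10 and 0.75).

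Lymphocyte markers moved less uniformly. Of 9 T cell markers tested 3 rose and 1 fell, of 9 B cell markers none rose and 2 fell, and of 6 markers of NK cells and innate lymphocytes none was called. With equal totals 6 T cell markers rose and 1 fell, 2 B cell markers rose and 2 fell, and 4 markers of NK cells and innate lymphocytes rose. Without SSD replicate 1, 2 T cell markers rose and 1 fell. Of the 6 T cell markers low on neither diet, 2 rose and 1 fell, and of the 3 such markers of NK cells and innate lymphocytes none was called. Most T cell markers went up, with 7 of the 9 log2 fold changes positive, a median of 0.58 and a highest value of 2.08. The only one that fell was Cd4, the coreceptor of helper T cells. Cd4 was at 100.1, 106, 103 and 100.4 normalized counts on NCD and at 27.2, 20.3, 32.4, 23.98 and 15.5 on SSD, a log2 fold change of -2.09 (adjusted p = 2.62e-05). Ighm, the heavy chain of IgM, was at 428, 687, 1105 and 723 and at 201, 150.4, 177, 199.9 and 154, with a log2 fold change of -1.98. Klrk1, the gene of NKG2D and the gene that the KO mice lack, was at 22.9, 20.1, 28.7 and 20.97 normalized counts on NCD and at 57.8, 32.9, 34.3, 71.1 and 34.3 on SSD. The SSD-fed mice were higher without overlap, with a log2 fold change of 0.90 (adjusted p = 0.0226), but the call was lost without NCD replicate 2 or 5 or SSD replicate 4 (adjusted p = 0.0556, 0.052 and 0.0538), and also with quantile normalization, with the replicate block and in the model of all 4 groups, in a range of adjusted p from 0.00391 to 0.122 over the alternatives. Raet1e, which encodes a ligand of NKG2D and overlaps its neighbouring copies, was at 111, 107, 91.2 and 258 on NCD and at 67.1, 53.2, 32.4, 23.98 and 16.3 on SSD, a log2 fold change of -1.89 (adjusted p = 0.00417). Of the 6 genes of the NKG2D receptor and its ligands that were tested, 2 rose and 2 fell, or 4 and 1 on the scale with equal totals, and of the 5 low on neither diet 2 rose and 2 fell.

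Among the largest changes were further genes. Rad51b (chromosome 12, 79344056 to 79861464 on GRCm39), a gene of DNA repair by recombination, was at 8.44, 9.06, 5.21 and 12.1 normalized counts on NCD and at 602, 659.8, 311, 436 and 435 on SSD, a log2 fold change of 5.66. Rgs16 (chromosome 1, 153616095 to 153621214), a regulator of G protein signalling, was at 13.3, 156, 50.8 and 12.1 and at 1247, 1238, 2623, 1757 and 1296, a log2 fold change of 5.47. Ly6d (chromosome 15, 74633905 to 74635469), a surface protein of the Ly6 family, was at 19.3, 14.1, 15.6 and 13.2 and at 2421, 607, 422, 564 and 514, with SSD replicate 1 the highest and a log2 fold change of 5.44, or 4.99 without it.

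Among the falls, Slc13a2, a citrate transporter, went from between 138 and 192 to between 1.33 and 7.604 normalized counts. Dct, known as a melanin enzyme, went from between 103 and 129 to between 1.33 and 5.72 and the adhesion receptor gene Adgrf1 from between 203 and 338 to between 4.22 and 26.6. The secreted trefoil factor Tff3, the nicotinic receptor subunit Chrna4 and Moxd1, which resembles a dopamine hydroxylase, fell from levels that varied widely between NCD-fed mice. Moxd1 was at 144, 106, 1916 and 538 on NCD and at no more than 2.66 on SSD. Tff3 was at 273, 197, 1302 and 449 on NCD and at 37.9, 16.1, 10.5, 50.6 and 8.16 on SSD.

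Whether the diet response differed by genotype was tested in a model of all 16 mice. The interaction of diet and genotype was called for 115 of 13068 genes, which is 0.88%. Of these, 58 rose and 38 fell in the WT mice. Several genes named above that rose in WT mice were among them. Ccnb1 had a log2 fold change of 3.18 in WT mice and -1.43 in KO mice, with an interaction of -4.61 (adjusted p = 0.0303), and Mki67 2.86 and -0.50 (adjusted p of the interaction 0.0277). The KO values of Ccnb1 were low, at 49.4, 9.95, 16.2 and 6.15 normalized counts on NCD and 8.69, 4.02 and 3.43 on SSD. Its change in KO mice leans on the high value of KO NCD replicate 1. Gdf15 stood at 200.3 to 339.5 normalized counts in the KO mice on NCD and at 256 to 369 on SSD, against 56.7 to 117 and 397 to 851 in WT mice, with an interaction of -2.77 (adjusted p = 0.0019). For Cdkn1a the values were 621 to 1330.3 and 619 to 1499 in KO mice against 254 to 499 and 1375 to 2985 in WT mice. In both genes the KO mice on NCD were above the WT mice on NCD, so the genotypes differed on NCD as well. Lgals3 stood at 122 to 169 and 147 to 212 in KO mice, where the WT mice went from between 103 and 128 to between 577 and 2088. As single libraries were left out, the count of interaction calls moved between 37, without KO SSD replicate 3, and 187, without WT SSD replicate 5.

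**Figure D5:**
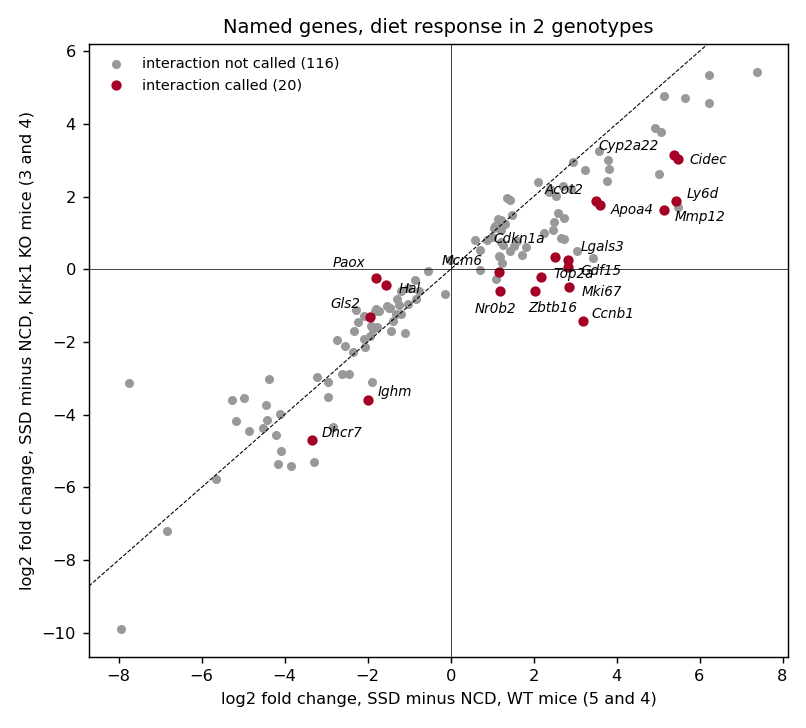
Log2 fold change for SSD minus NCD of named genes in WT mice (x axis) and in Klrk1 KO mice (y axis), with the line of equality dashed. Genes whose interaction was called (dark red) include Ccnb1 at 3.18 in WT and, from low counts, -1.43 in KO mice, and the 136 genes shown were tested in both genotypes.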

How the data were processed

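Liver RNA was extracted with the Qiagen RNeasy Micro kit and sequenced as single reads. The labels name a TruSeq mRNA kit and the study's methods a TruSeq Total RNA kit. The authors used FastQC, STAR, the GRCm39 build and FeatureCounts, and deposited 1 table of normalized counts (a signal per gene and mouse). How its factors were computed and whether counting used strand is not given in the sources used here. The values of all 16 libraries were whole multiples of 1 read within 0.01 for 100% of values, so read counts were recovered for alternatives.

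limma 3.58.1 (R 4.3.3) was fitted with a variance trend to log2(normalized count + 1) of genes with a mean of at least 10, with Benjamini-Hochberg adjustment over all genes tested and no covariate. Fold changes on this scale understate changes of low genes. The labels do not say that libraries of a group came from separate mice, and p-values measure only the spread between these libraries. Exons of Acot3, Ephx1, Onecut1, Raet1e and Top2a overlap other genes on the same strand, and those of further named genes, among them Acss2, Crat, Cxcl10, Fgf21, Gls2, Gnmt, Mmp12 and Paox, on the opposite strand. Alternatives were other pseudocounts, minimum means, variance settings, scalings, edgeR 4.0.16 and DESeq2 1.42.0 on recovered reads, a replicate block (numbers 1, 2, 3 and 5, so without SSD replicate 4), a model of 4 groups and leaving out each mouse. On counts simulated for the WT comparison of the diets (13091 genes), 96 of 100 genes changed 4-fold, 91 of 100 changed 2-fold and 7 of 12891 unchanged genes were called. The simulation gave every gene the same dispersion on both diets and held no outlying mouse. Its shares therefore do not describe genes that spread widely between the SSD-fed mice.

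Named genes were the 12 largest rises and falls beyond 2-fold without overlap and with a mean of at least 50 in the higher group, anchors of each list with the 4 called members of largest change, and Klrk1, Acta2, Col1a1, Lox and Hhipl1, with Cyp2c69 and Cyp17a1 added after their values were seen, and a part of these is printed. The members and lists were chosen with earlier results of these data known. Some items are not reported here.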

Additional observations from a re-analysis of the deposited data

Results flagged for a closer look

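Within a diet group, a mouse was marked where it lay far from the rest of its group by Dixon's ratio, which chance alone marks in about 1 in 20 groups. Among 282 groups of WT mice, each the values of 1 gene on 1 diet, 19 marks were made, 11 of them for SSD replicate 1. SSD replicate 1 was the highest of its group for Abcg1 (698.8 normalized counts, the others 268.6 to 346.4), Abcc4 (285, the others 91.44 to 121.7), Trib3 (959.9), Il1rn (453), Hmox1 (1895), Gpnmb (1614, the others 116.8 to 218.9), Trem2 (445.1), Fabp5 (338.1) and Ly6d (2421, the others 421.6 to 606.6). It was the lowest for Acacb (94.99, the others 255.8 to 344.7) and Ephx1 (18870.0). Among the other SSD-fed mice, replicate 5 was high for Abcg5 (7807) and replicate 2 low for Cyp7a1 (664.9). Among the NCD-fed mice, replicate 1 was low for Abcg1 (91.65), replicate 2 low for Ccr2 (23.16), replicate 3 low for Cyp2a22 (5.214) and Lgals3 (103), and replicate 5 high for Psat1 (15.45). Areg was marked in NCD replicate 2 for a value of 1.007, which is 1 read.

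The diet response of 21 of the 141 named genes differed between genotypes by the interaction term of limma's model. Over all genes tested the share was 0.88%. Named genes were chosen partly by their change in WT mice, which enters the interaction, so their share cannot be set against that of all genes. The interaction term is given here as the log2 fold change in KO minus that in WT mice. For genes that rose in WT mice it was -4.609 for Ccnb1, -3.355 for Mki67, -2.374 for Top2a and -1.243 for Mcm6 of the cell cycle. It was -4.294 for Areg, -3.523 for Mmp12, -2.571 for Lgals3, -3.561 for Ly6d, -2.774 for Gdf15 and -2.188 for Cdkn1a. It was -2.452 for Cidec, -1.839 for Apoa4, -1.623 for Acot2, -2.246 for Cyp2a22, -1.785 for Nr0b2 and -2.626 for Zbtb16. For genes that fell in WT mice it was 0.6406 for Gls2, 1.109 for Hal and 1.559 for Paox, whose fall was smaller in KO mice, and -1.371 for Dhcr7 and -1.609 for Ighm, whose fall was larger. Areg had at most 2.3 normalized counts in any KO mouse and 1 read over all WT mice on NCD. It reached the minimum level only through the WT mice on SSD, so its interaction call was tied to that filter. The KO and WT mice differed already on NCD for several of these 21 genes. Nr0b2 stood at 2128 to 3059 normalized counts in KO against 515 to 802 in WT mice on NCD, Zbtb16 at 805 to 1402 against 111 to 141, Paox at 71.3 to 89.6 against 771 to 834 and Ighm at 1507 to 2030.0 against 428 to 1105.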

How the results depend on the processing

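Of the 137 named genes that were called, 131 were called under each of the 20 or 21 alternatives that gave them a value, and Cyp7a1, Klrk1, Col1a1, Hhipl1, Egfr and Cfd were not. Scaling every library to the same total gave 7035 calls, 6315 higher and 720 lower, and 1921 beyond 2-fold, 1670 higher and 251 lower. It also gave 21 interaction calls with a positive sign, and turned Scd1, which was not called, from -0.14 to 0.20. Quantile normalization gave 0.29 for Scd1. Abca1, at -0.0044, became 0.34 on the same total, 0.20 with quantile normalization and 0.068 with a replicate block, which leaves out SSD replicate 4, and the same 0.068 without that mouse and without a block. It lay between -0.097 and 0.086 without single mice. A minimum mean of 50 left 749 calls beyond 2-fold, 447 of them higher, since fewer genes were tested. Without single mice there were 3614 to 4460 calls, 1729 to 2283 higher and 1841 to 2262 lower, and 1013 to 1367 beyond 2-fold, 629 to 975 higher and 358 to 407 lower. The interaction calls ranged from 37 (without KO SSD replicate 3) to 187 (without WT SSD replicate 5), 11 to 49 positive and 26 to 138 negative. Mice of the same replicate number did not deviate alike from their group means, with correlations of deviations of -0.15, -0.06, -0.04 and -0.08. Such correlations cannot show whether these mice shared a cage, litter or batch. The replicate block also leaves out SSD replicate 4, whose number no NCD-fed mouse has, and gave 2974 calls, 1423 higher, against 3700, 1802 higher, without that mouse and without a block. Reads per mouse limit genes near 3 reads, such as Areg and Cyp2b9 on NCD. Other causes of these differences were not tested.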

Other observations

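Genes of other liver functions also changed. Hamp2, a paralog of the iron hormone hepcidin, was at 541, 599, 719.5 and 689 normalized counts on NCD and at 152, 149, 108, 74.6 and 106 on SSD, a log2 fold change of -2.46 (adjusted p = 3.23e-06). Slc40a1, the iron exporter ferroportin, was at 1571, 1624, 1486 and 1375 and at 3934, 3194, 3407, 4404 and 4031, a log2 fold change of 1.32 (adjusted p = 3.42e-06). Neither gene overlapped between the diets. Of 25 genes of heme and iron, 6 rose and 9 fell, and on the scale with equal totals 12 rose and 1 fell. Paox, which oxidizes acetylated polyamines, went from between 771 and 834 to between 192 and 253 normalized counts, while 3 of 12 genes of polyamine metabolism rose and 4 fell, or 5 and 2 on the scale with equal totals.

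Among glucocorticoid-responsive genes 8 of 15 rose and 3 fell, or 7 and 1 without SSD replicate 1 and 11 and 1 on the scale with equal totals. Zbtb16, a transcription factor, went from between 111 and 141 to between 449 and 647 and Fkbp5, a cochaperone of the glucocorticoid receptor, from between 259 and 423 to between 699 and 1188. The clock gene Per2 went from between 559.6 and 1009 to between 220.3 and 383, and 5 of 22 clock genes rose and 5 fell, or 9 and 2 on the scale with equal totals, and 5 and 5 of the 21 low on neither diet. Nuclear genes of the respiratory chain fell for 62 of 78 with a median log2 fold change of -0.47, but for 9 on the scale with equal totals, and for 62 of the 77 low on neither diet, and of 81 cytosolic ribosomal proteins 8 fell and none rose here, 15 fell without SSD replicate 1, and 9 rose and none fell on that scale.

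Among the 1179 genes that passed both limits, SSD replicate 1 was the most changed of the 5 SSD-fed mice for 710 (60.2%) and SSD replicate 5 the least changed for 466.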
